A study of Mus musculus with 6 samples.

Results

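The 32 genes described here are immediate-early genes, members of a fixed list of activity-induced transcripts that holds the Fos, Jun, Egr and Nr4a families, Arc, Npas4 and their negative regulators. They were selected by gene symbol from the deposited gene table, and all 32 were found among its 34745 genes, 1 entry each. The libraries are dorsal striatum RNA of C57BL/6 mice 1 year old: 3 libraries from mice heterozygous for Ash1l (Ash1l het), a gene for a histone H3 lysine 36 methyltransferase, and 3 from wild type (WT) mice. The allele itself, and whether each library is a separate animal, are not stated in the labels, so p-values reflect library-to-library spread, which may be technical. No other treatment is described for either group.

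Immediate-early genes are switched on within minutes of neuronal firing, growth factor or stress signals, without the need for new protein. Calcium, cyclic AMP and MAP kinase signals reach factors already bound at their promoters, chiefly CREB at cyclic AMP response elements (CRE) and serum response factor at CArG boxes. Their transcripts decay fast, so tissue levels follow the recent past of the cells. In spiny projection neurons of the striatum, dopamine and glutamate drive them, and Fos, Arc and Egr1 are in wide use as markers of activated cells.

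Windows of 250 bases before the transcription start were available for 24 of the 32 genes (RefSeq, GRCm38.p6), 30 windows in all. A CRE core, TGACG or its reverse complement CGTCA, lay in a window of 16 of these 24 genes and in 63.3% of their windows, against 17.8% of all 32851 windows of the same length. The full palindrome TGACGTCA, which holds both orientations of that core, overlapping, was found for 3 of 24 (Btg2, Dusp1 and Maff), 10% of their windows, against 1.55% of all windows. The CArG box was found for 2 of 24 (Dusp5 and Egr2), 16.7% of the windows since a gene can have several, against 1.47%. The TATA box TATAAA was found on the gene's strand for 3 of 24 (Fos, Gadd45b and Gadd45g), 10% of the windows, against 7.59%, and the AP-1 site TGANTCA for 0 of 24, against 6.75%. Sequences are shown for 4 of the genes that had their lowest level in the same library (Fos, Junb, Npas4 and Nr4a1). Btg2 is also shown, as the printed gene with a full CRE. Its RefSeq start lies upstream of its start in the deposited gene table. CRE cores of either strand and the TATA box are in capitals, and each sequence runs 5′ to 3′ on the gene's strand.
Fos, chr12:85473640-85473889, plus strand: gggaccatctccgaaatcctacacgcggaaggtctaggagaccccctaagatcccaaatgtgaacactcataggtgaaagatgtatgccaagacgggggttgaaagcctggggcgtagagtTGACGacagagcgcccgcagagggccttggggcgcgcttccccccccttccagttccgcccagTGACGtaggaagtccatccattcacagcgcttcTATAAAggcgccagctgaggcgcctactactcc
Junb, chr8:84978749-84978998, minus strand: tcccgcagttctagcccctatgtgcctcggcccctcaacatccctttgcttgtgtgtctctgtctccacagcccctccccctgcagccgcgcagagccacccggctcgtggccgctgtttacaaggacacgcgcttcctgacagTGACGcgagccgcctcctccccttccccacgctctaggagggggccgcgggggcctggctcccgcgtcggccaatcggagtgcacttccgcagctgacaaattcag
Npas4, chr19:4989972-4990221, minus strand: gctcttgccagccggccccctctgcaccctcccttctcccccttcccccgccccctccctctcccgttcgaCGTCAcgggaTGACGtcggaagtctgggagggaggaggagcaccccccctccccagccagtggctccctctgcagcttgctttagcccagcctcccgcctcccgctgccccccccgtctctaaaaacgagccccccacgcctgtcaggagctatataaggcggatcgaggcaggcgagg
Nr4a1, chr15:101266596-101266845, plus strand: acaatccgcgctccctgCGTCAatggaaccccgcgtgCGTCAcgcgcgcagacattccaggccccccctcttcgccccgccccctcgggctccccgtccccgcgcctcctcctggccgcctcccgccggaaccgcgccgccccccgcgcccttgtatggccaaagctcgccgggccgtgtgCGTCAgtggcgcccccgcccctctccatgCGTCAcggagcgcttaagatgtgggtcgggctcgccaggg
Btg2, chr1:134079156-134079405, minus strand: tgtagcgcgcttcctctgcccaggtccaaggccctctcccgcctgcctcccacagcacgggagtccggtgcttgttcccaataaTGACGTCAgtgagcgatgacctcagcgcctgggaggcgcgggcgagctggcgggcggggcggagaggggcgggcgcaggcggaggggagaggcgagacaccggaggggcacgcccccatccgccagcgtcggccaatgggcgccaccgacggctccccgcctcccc
The Fos cores began 129 and 66 bases before the start and its TATA box 33 bases before it. The core of Junb began 106 bases before the start, those of Npas4 179 and 169 bases, and the 4 of Nr4a1 233, 213, 69 and 40 bases. A match says that these letters are present, not that a factor was bound in this tissue.

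Library totals ran from 12080663 to 18798694 counts, and the 32 genes together took between 18727 and 34431 counts of a library. Ash1l het replicates 1 and 2 stood apart from the other 4 libraries, at -28.1 and -28.5 on the first principal component of all tested genes against 4.18 to 23.8. On the second component these 2 libraries lay at opposite ends, at 34.8 and -34.3, against -2.54 to 4.70 in the other 4. They also had the highest Gfap, the astrocyte filament gene induced on injury, at 412 and 733 CPM (count share on the TMM scale) against 62.1 to 154 in the other 4. Summed over the 4 haemoglobin genes measured, the level was 113, 96.8 and 53.5 CPM in Ash1l het, against 22.9, 33.8 and 21.7 CPM in WT. The labels describe males, but the female-specific transcript Xist stood at 1956 to 2957 CPM in all 6 libraries, and the 4 Y-linked genes summed had 1 count in WT replicate 1 and 0 in the others. Ash1l itself stood at 281, 198 and 253 CPM in Ash1l het, against 308, 295 and 293 CPM in WT, and did not pass over all genes (log2 fold change -0.29, edgeR adjusted p = 0.858).

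Among the 32 genes the levels per length spanned a wide range. By mean FPKM, the deposited level per length, over the 6 libraries, Egr3 came first at 102. Egr1 followed at 65.9, Nr4a1 at 63.2, Junb at 42.2, Jund at 33.5 and Arc at 28.8. The length behind FPKM exceeded the annotated span for some members, such as Egr1 and Arc. For Egr3 it was below the deposited span of 2713 bases and the longest annotated transcript of 3940 bases. Ranks across genes, the first place of Egr3 included, are therefore uncertain. By mean CPM, which uses no length, Egr1 stood at 496, Nr4a1 at 156, Arc at 149, Egr3 at 145 and Fos at 16.4. The EGR zinc finger factors together summed to 189 FPKM and the 8 AP-1 and related factors to 107 FPKM. These sums carry the same uncertainty of length. Fos was far lower, at 4.38 FPKM, between Egr2 at 3.43 and Ier3 at 4.67. At the low end stood Nr4a2 at 0.758 FPKM, Maff at 0.812 and Atf3 at 0.836. The top places are not fixed by these data: library values ran from 66.3 to 130 FPKM for Egr3, from 57.4 to 81.4 for Egr1 and from 38.4 to 91.7 for Nr4a1, so the 3 ranges overlap. The spiny projection neuron markers, 14 of 14, were present in every library, summing to between 9073 and 11230 CPM in Ash1l het, against between 9846 and 10795 CPM in WT.

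By their medians the members were shorter genes with fewer exons and more G+C than the tested genes as a whole, which the list did not use. Their median gene span was 4710 bases and their longest annotated transcript had a median of 3 exons, against 23120 bases and 7 exons over all tested genes. The median G+C content of that transcript was 55.6%, against 49.5%, and 17 of the 32 fell in the fifth of tested genes with the highest G+C. Single members differed, such as Sik1 with 14 exons, Nr4a1, Nr4a2 and Nr4a3 with 8 each, and Atf3 and Nr4a3 with spans of 47744 and 41295 bases.

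Between libraries the immediate-early genes varied more than most genes of like level. Their coefficient of variation over the 6 libraries, taken across genotypes, had a median of 29.6%, against 14.8% over all 15267 tested genes. Set among the 500 genes nearest in mean CPM, the median member stood at percentile 93.1 of spread, and 20 of 32 members stood at percentile 90 or above. Egr4, a nerve growth factor-induced zinc finger factor, stood highest at percentile 99.2, and Junb, Fos, Egr2, Arc, Atf3 and Fosl2 stood between 98 and 98.6. At the other end, Gadd45b and Ier2 stood at percentiles 21 and 24, Jun at 32.6, and Dusp6, Sik1 and Trib1 at 40.2 to 47.2. Egr1, the most used activity marker of the family, had a coefficient of variation of only 12.8%, percentile 65.4, where Fos had 50.2%. These are descriptions of 6 libraries, and the members were chosen as a known inducible set, with earlier results of these data known.

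**Figure D1:**
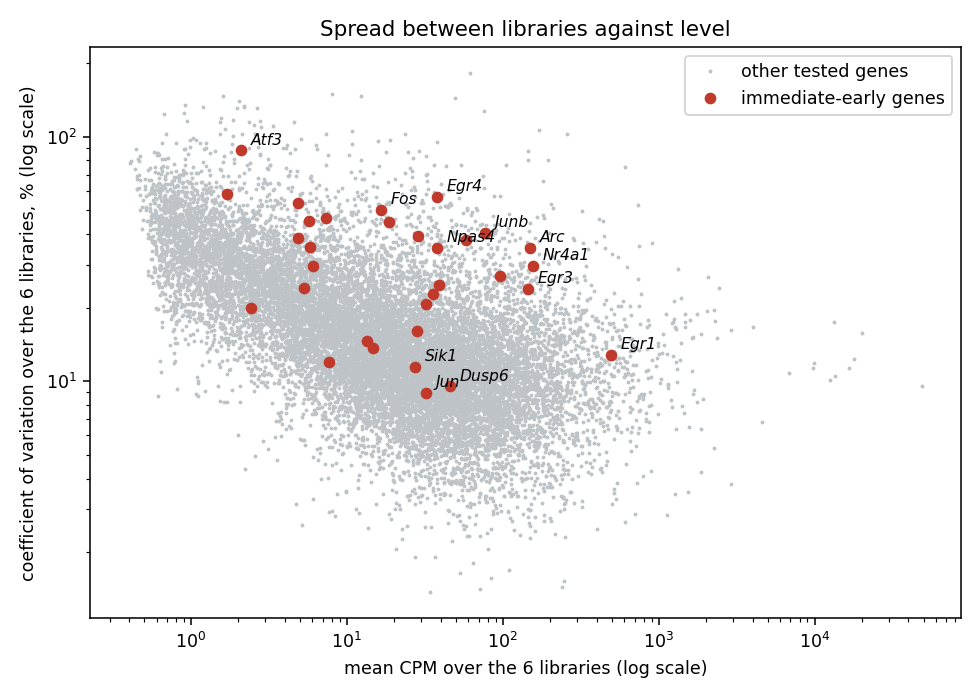
Coefficient of variation over the 6 libraries (%, log axis) against mean CPM (log axis) for the immediate-early genes (red points) and all other tested genes (grey points). Most red points lie in the upper part of the grey cloud, with Fos at 50.2% and Arc at 35.0%, while Jun at 8.93% and Dusp6 at 9.53% lie within its middle.

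The spread had a direction by library. WT replicate 2 held the lowest level of 14 of the 32 genes, 43.8% of them, against 14.5% of all tested genes that had their lowest level there. Ash1l het replicate 2 held the highest level of 11 (34.4%, against 24.1% of all tested genes) and WT replicate 3 that of 10 (31.2%, against 13.8%). For Arc, Dusp1, Npas4 and Sik1 the lowest library was WT replicate 2 and the highest WT replicate 3. For Dusp6 and Nptx2 both ends were also WT, in other replicates. The 32 genes summed to 1404, 1873 and 1596 CPM in Ash1l het, against 1550, 1407 and 1993 CPM in WT.

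**Figure D2:**
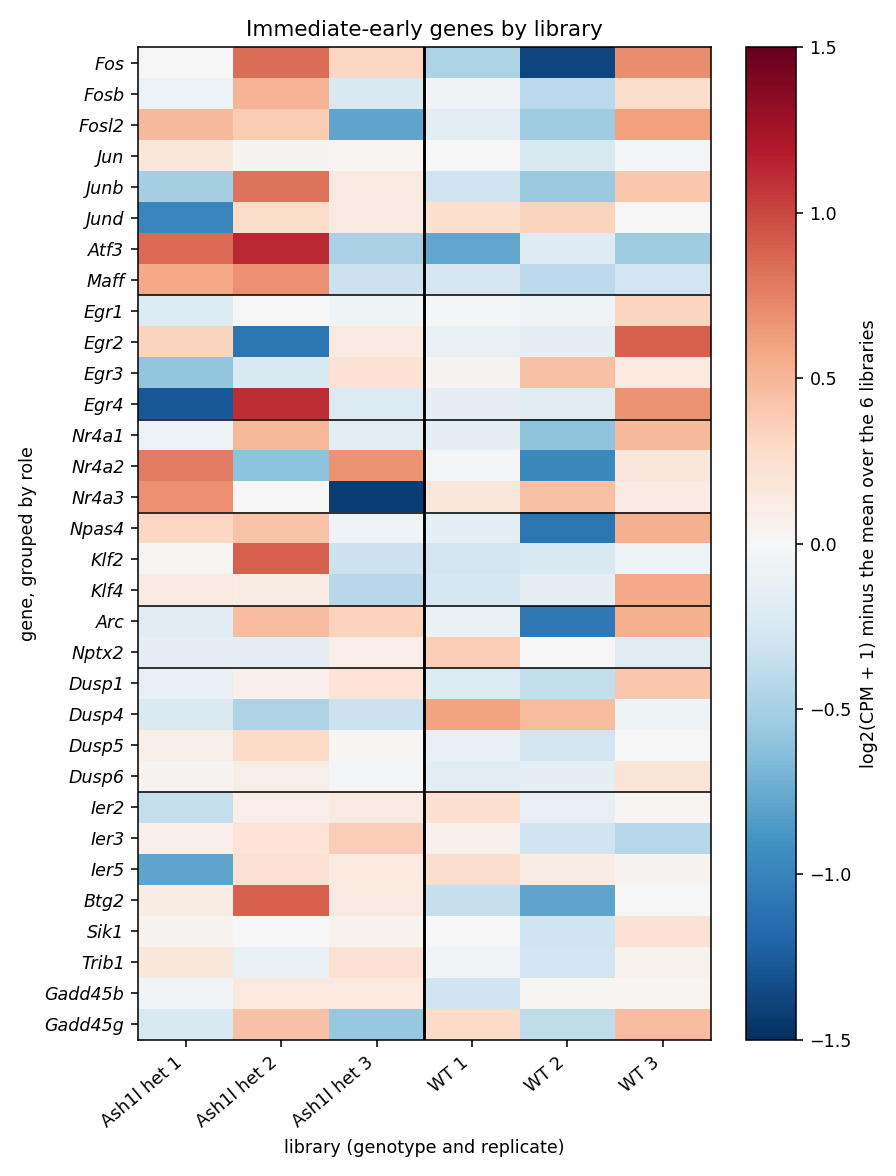
Level of each of the 32 genes in each library, as log2(CPM + 1) minus that gene's mean over the 6 libraries (colour, red above and blue below), with genes grouped by role and the Ash1l het libraries left of the WT libraries. WT replicate 2 is blue for Fos, Npas4 and Arc (-1.38, -1.10 and -1.07), and Ash1l het replicate 1 is blue for Egr4 and Jund (-1.27 and -0.98).

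Across the comparison of genotypes, 0 of 32 immediate-early genes passed the edgeR quasi-likelihood test after Benjamini-Hochberg adjustment over all 15267 tested genes, where 2 genes (0.0131%) passed. The smallest adjusted p was 0.801, for Dusp4, and 0 of 32 passed by DESeq2 (0.255% of all tested genes), the exact test of edgeR (0.177%) or limma-voom (0.0197%). At an unadjusted p under 0.05 there were 5 members, 15.6% of them, against 5.78% of all tested genes, with 4 higher (3.1% of all tested genes) and 1 lower (2.67%) in Ash1l het. At that level DESeq2 gave 4 members (4.92% of all tested genes), the exact test 5 (4.68%) and limma-voom 3 (5.78%). The members were chosen with earlier results of these data known, so these shares are descriptions only. The fitted change was positive for 21 members and negative for 11, where 51.4% of all tested genes were positive. The median log2 fold change was 0.11, against 0.0063 over all tested genes. The groups did not overlap for 5 members, 15.6%, against 11.7% of all tested genes. They were Btg2, Dusp5, Ier3 and Jun on the higher side (6.18% of all tested genes) and Dusp4 on the lower side (5.53%), and for each the two-sided exact permutation p was 0.1, the smallest that 3 against 3 allows. On the FPKM scale the groups of Dusp5 and Jun overlapped, leaving 3 members (12% of all tested genes).

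**Figure D3:**
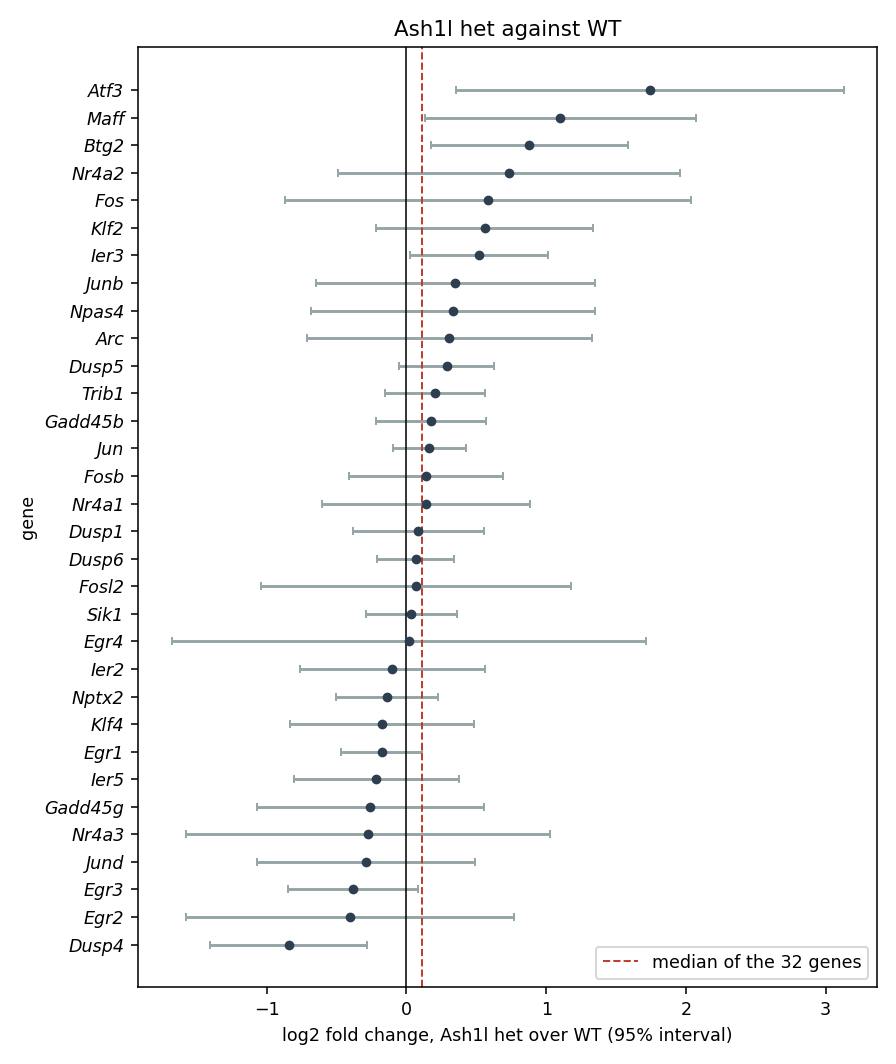
Log2 fold change of each gene, Ash1l het over WT, with its 95% interval from the edgeR quasi-likelihood fit, ordered by size, and the median of the 32 genes at 0.11 (dashed line). The interval includes no change for 27 of the 32 genes, and the 5 that leave it out, before adjustment, are Atf3, Maff, Btg2, Ier3 and Dusp4.

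The direction of the set depended on single libraries. Without WT replicate 3, 23 of 32 fitted changes were positive (51% of all tested genes) and the median was 0.30. Without WT replicate 2, 13 of 32 were positive (50.5% of all tested genes) and the median was -0.047. Without Ash1l het replicate 2 the count was 16 of 32 (49.5% of all tested genes) and the median -0.0055. Fos, Npas4 and Dusp1 had an unadjusted edgeR p under 0.05 in the fit without WT replicate 3 and in no other fit run, at log2 fold changes of 1.40, 0.81 and 0.36. Their edgeR adjusted p there was 0.998 each. Arc had 0.75 in that fit and -0.020 without WT replicate 2. Counts of members at an unadjusted edgeR p under 0.05 were 3, 2 and 6 without Ash1l het replicates 1, 2 and 3 (5.5%, 6.42% and 10.9% of all tested genes) and 3, 2 and 5 without WT replicates 1, 2 and 3 (4.41%, 3.14% and 3.58%). Without Ash1l het replicate 1 or replicate 3, 23 members each were positive (50.8% and 51.2%), and without WT replicate 1 there were 20 (50.6%). Without both Ash1l het replicates 1 and 2, 17 members were positive (49.2%), 3 had an unadjusted p under 0.05 (6.13%) and 1 passed (0.311%), Nr4a3 at -1.78. Members whose groups did not overlap numbered 7, 9 and 9 without Ash1l het replicates 1, 2 and 3 (21.3%, 23.7% and 28.2% of all tested genes), 5, 6 and 9 without WT replicates 1, 2 and 3 (21.5%, 18.3% and 19.4%), and 15 without both Ash1l het replicates 1 and 2 (51%).

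In WT replicate 2, Fos, Npas4 and Arc lay furthest below their own means. Fos, the AP-1 subunit most used to mark activated neurons (ENSMUSG00000021250, chr12:85473890-85477273 in GRCm38), had 14.5, 26.6 and 18.3 CPM in Ash1l het, against 10.2, 4.96 and 24.2 CPM in WT. WT replicate 3 exceeded WT replicate 2 4.88-fold, and its value lay inside the Ash1l het range. The fitted log2 fold change was 0.59 (SE 0.59), an interval from 0.548-fold to 4.11-fold at 95%, with an edgeR quasi-likelihood adjusted p of 0.913.

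Npas4, a neuron-specific factor induced by calcium entry (ENSMUSG00000045903, chr19:4984355-4989971), had 44.3, 48.3 and 34.4 CPM in Ash1l het, against 32.3, 16.1 and 52.5 CPM in WT. Arc, whose product acts at dendrites in AMPA receptor endocytosis (ENSMUSG00000022602, chr15:74669083-74672570), had 123, 193 and 177 CPM in Ash1l het, against 130, 65.8 and 203 CPM in WT. For both genes the WT libraries spanned the whole Ash1l het range, from WT replicate 2 at the bottom to WT replicate 3 at the top. Their log2 fold changes were 0.33 for Npas4 and 0.31 for Arc (SE 0.41 each), with edgeR adjusted p-values of 0.932 and 0.936.

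Nr4a1, an orphan nuclear receptor induced by dopamine and growth factor signals (chr15:101266846-101274792), had 141, 213 and 134 CPM in Ash1l het, against 135, 98.8 and 210 CPM in WT. Junb, an AP-1 subunit (chr8:84976909-84978748), had 50.9, 128 and 79.7 CPM in Ash1l het, against 58.4, 48.8 and 96.0 CPM in WT. Fosb, which gives the stable deltaFosB protein under repeated stimulation, had 35.4, 54.1 and 32.1 CPM in Ash1l het, against 36.5, 28.3 and 45.5 CPM in WT. In these 3 genes Ash1l het replicate 2 was the highest library and WT replicate 2 the lowest, and the groups overlapped. None passed: the log2 fold changes were 0.14 (SE 0.31) for Nr4a1, 0.35 (SE 0.41) for Junb and 0.14 (SE 0.24) for Fosb, with edgeR adjusted p-values of 0.963, 0.928 and 0.946. Junb shares exonic sequence with Prdx2 on the opposite strand, and the strand setting of the counting is not given, so its counts are uncertain to that extent. The same holds for Dusp1 with Ergic1, and for Jun, Jund and Dusp5 with antisense transcripts. Summed by group, Prdx2 had 3203 counts in Ash1l het and 2900 in WT, and Ergic1 5743 and 6066. The antisense gene at Jun had only 18 and 17 counts, that at Jund 40 and 24, and that at Dusp5 is not in the gene table.

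**Figure D4:**
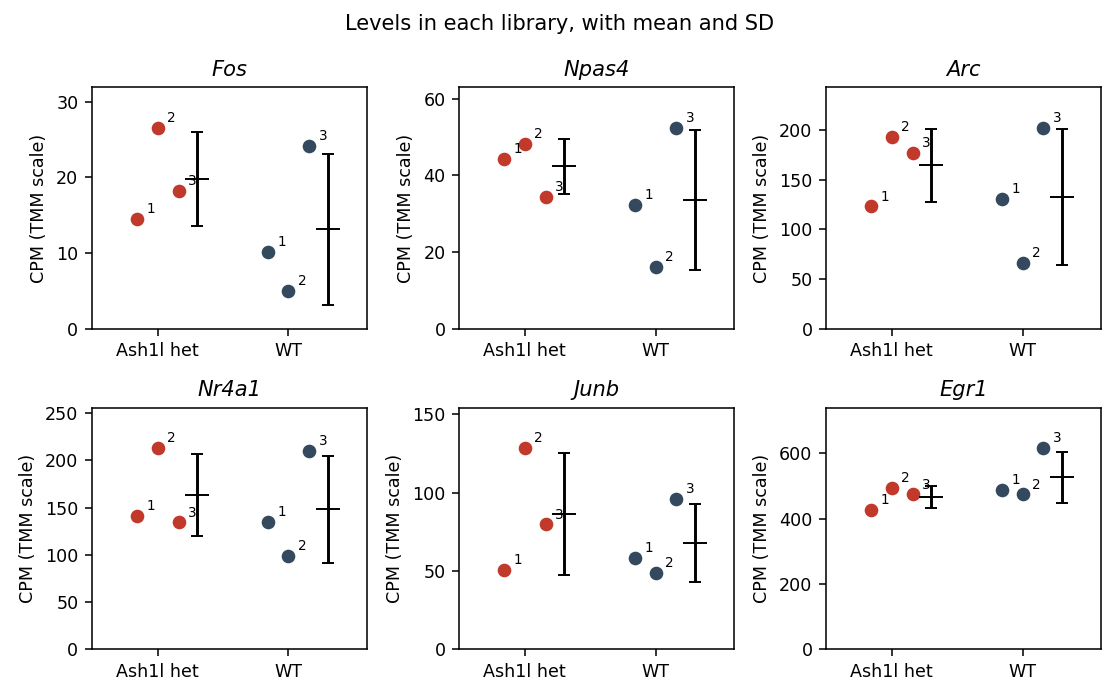
CPM (TMM scale, axes from 0) of 6 immediate-early genes in each library, Ash1l het (red) left of WT (dark blue), with replicate numbers beside the points and mean ± SD as black bars. For Fos, Npas4 and Arc the WT points span 4.96 to 24.2, 16.1 to 52.5 and 65.8 to 203 CPM, and the genotypes overlap in all 6 panels.

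Among the other AP-1 subunits the order of the libraries varied. Jun, the main partner of Fos, was the steadiest, at 36.3, 33.0 and 32.9 CPM in Ash1l het, against 32.3, 27.4 and 31.7 CPM in WT. Its groups did not overlap, by a margin of less than 1 CPM, and the fitted log2 difference was 0.16 with SE 0.12 (adjusted p = 0.895, edgeR). Fosl2 had 76.1, 70.4 and 30.7 CPM in Ash1l het, against 48.4, 37.1 and 83.3 CPM in WT, with the lowest library an Ash1l het one. Jund, a subunit kept at a steady level in most cells, had 46.3, 112 and 101 CPM in Ash1l het, against 109, 117 and 92.1 CPM in WT. Ash1l het replicate 1 alone was low for Jund, and the other 5 libraries lay within 1.27-fold of each other.

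The EGR factors, zinc finger proteins that bind G-rich sites and regulate synaptic genes, leaned lower in Ash1l het by sign in 3 of 4, and 0 of 4 passed. Egr3 (chr14:70077445-70080157) had 93.0, 120 and 164 CPM in Ash1l het, against 145, 191 and 156 CPM in WT, a fitted log2 difference of -0.38 with SE 0.20 (adjusted p = 0.878, edgeR). Ash1l het replicate 3 lay inside the WT range. Without Ash1l het replicates 1 and 2 the log2 fold change of Egr3 was -0.00032. Egr1 had 428, 494 and 474 CPM in Ash1l het, against 488, 474 and 616 CPM in WT, a fitted log2 difference of -0.18 with SE 0.13 (adjusted p = 0.897, edgeR) whose 95% interval ran from 0.723-fold to 1.08-fold. That interval was much narrower than the one of Fos. Egr2 had 21.8, 7.49 and 19.0 CPM in Ash1l het, against 15.8, 15.4 and 32.7 CPM in WT. Ash1l het replicate 2, the highest library for Fos and Junb, was the lowest for Egr2. Egr4 had 13.1, 72.1 and 28.5 CPM in Ash1l het, against 30.0, 28.8 and 53.3 CPM in WT, and the lowest and the highest of the 6 libraries were both Ash1l het. Its fitted log2 difference was 0.02 (SE 0.67, adjusted p = 0.998, edgeR) and turned negative on the FPKM scale and by limma-voom, and the sign of Egr2 turned without WT replicate 3. The EGR members thus differed from each other in the order of the libraries.

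The NR4A receptors differed among themselves as well. Nr4a2, a factor best known for its need in dopamine neurons, had 8.09, 2.48 and 7.53 CPM in Ash1l het, against 4.22, 1.73 and 4.98 CPM in WT, with replicate 2 lowest in either group (fitted log2 difference 0.73 with SE 0.52, adjusted p = 0.897 by edgeR). Nr4a3 had 42.6, 26.1 and 9.13 CPM in Ash1l het, against 29.5, 35.9 and 28.5 CPM in WT. The WT libraries lay within 1.26-fold of each other, while the Ash1l het libraries spanned 4.67-fold, with replicate 3 the lowest of all 6. The fitted log2 difference was -0.28 with SE 0.52 (adjusted p = 0.953, edgeR).

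**Figure D5:**
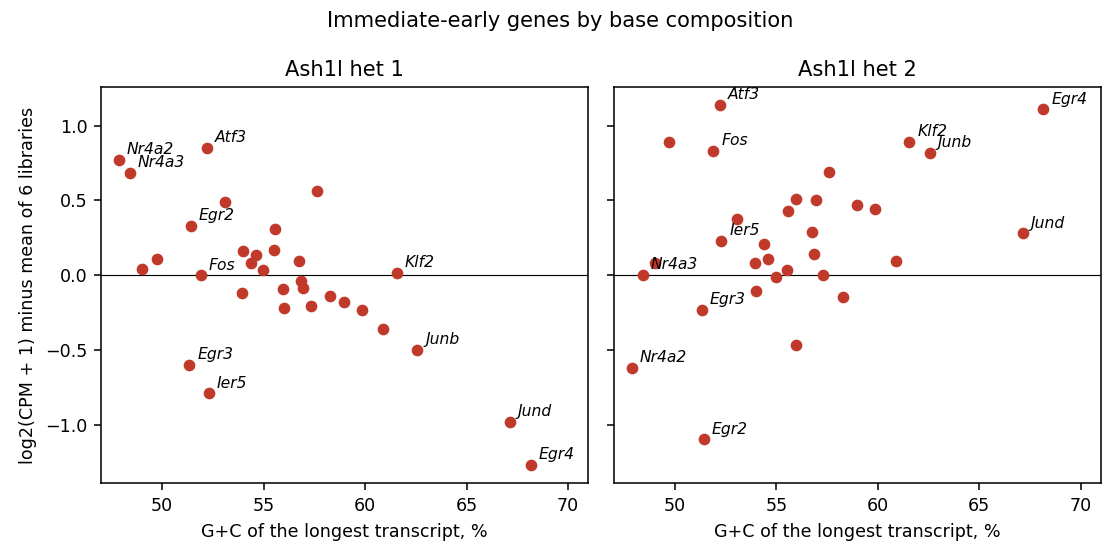
Departure of each immediate-early gene from its own mean over the 6 libraries (log2(CPM + 1) scale) against the G+C content of its longest annotated transcript (%), in Ash1l het replicate 1 (left) and Ash1l het replicate 2 (right). In replicate 1 the most G+C-rich genes, Egr4 and Jund, lie lowest, at -1.27 and -0.98, and in replicate 2 Egr4 lies at 1.11.

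Base composition moved with the levels in Ash1l het replicate 1. Across the 32 genes, which are not independent replicates, the departure of a gene in this library from its mean over the 6 libraries had a Pearson r of -0.66 with the G+C content of its longest transcript. Across 15197 tested genes with a transcript sequence that r was -0.41, and the fifth of genes with the highest G+C content had a median departure of -0.20 there. In the other 5 libraries r over all genes lay between -0.03 and 0.22. Over the 32 members r was 0.39 in Ash1l het replicate 2, and between 0.02 and 0.17 in Ash1l het replicate 3 and the WT libraries. Ash1l het replicate 1 held the lowest level of Egr4 (G+C 68.2%), Jund (67.1%), Ier2 (60.9%), Egr1 (57.3%), Ier5 (52.3%) and Egr3 (51.3%). Of these, Ier5 and Egr3 lie below the members' median G+C and the others above it. The part of base composition in these levels was not tested.

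Of the 5 members with an unadjusted p under 0.05, Dusp4 was the single one lower in Ash1l het. Dusp4, a nuclear phosphatase that switches off MAP kinases (ENSMUSG00000031530, chr8:34807297-34819894, plus strand), had 3.81, 3.06 and 3.46 CPM in Ash1l het, against 7.53, 6.76 and 4.34 CPM in WT. All 3 Ash1l het libraries lay below all 3 WT libraries, the nearest WT library being replicate 3. The log2 fold change was -0.84 (SE 0.25), a fitted level of 0.558 of WT with a 95% interval of 0.378 to 0.823, at an edgeR p of 0.0078 unadjusted and 0.801 adjusted. With single libraries left out the log2 fold change stayed between -1.05 and -0.69, and the edgeR unadjusted p was under 0.05 in each of these 6 fits. These values rest on 47 to 113 counts per library.

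The fitted signs of its relatives were positive, that of Dusp1 turning without WT replicate 1 or 2. Dusp1, the phosphatase induced first after a stimulus, had 29.1, 33.6 and 36.8 CPM in Ash1l het, against 27.2, 24.3 and 42.2 CPM in WT, with the Ash1l het values inside the WT range. Dusp5, which acts on ERK in the nucleus, had 14.3, 16.6 and 13.6 CPM in Ash1l het, against 12.3, 10.8 and 13.4 CPM in WT, a fitted log2 difference of 0.29 with SE 0.15 (adjusted p = 0.878, edgeR). Dusp6, which acts on ERK in the cytoplasm, averaged 46.7 ± 1.57 CPM (SD, n = 3) in Ash1l het, against 44.5 ± 6.42 CPM (SD, n = 3) in WT. Whether Dusp4 differed from them was not tested.

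Atf3 and Maff, bZIP factors of the stress response, had the largest fitted increases and the same library pattern. Atf3 (chr1:191170296-191218039) had 3.88, 4.95 and 0.935 CPM in Ash1l het, against 0.580, 1.37 and 0.868 CPM in WT, resting on 57, 76 and 17 counts in Ash1l het and 7, 23 and 15 counts in WT. Maff (chr15:79347541-79359072) had 2.79, 3.13 and 1.04 CPM in Ash1l het, against 1.16, 0.956 and 1.10 CPM in WT. For both, Ash1l het replicates 1 and 2 were the highest libraries and Ash1l het replicate 3 lay inside the WT range. The log2 fold changes were 1.74 (SE 0.60) for Atf3 and 1.10 (SE 0.43) for Maff, each with an edgeR adjusted p of 0.857. Without Ash1l het replicates 1 and 2 they were -0.037 and -0.031. The same 2 libraries carried the high Gfap levels given above, and microglia markers (9 genes) summed to 453, 646 and 444 CPM in Ash1l het, against 477, 438 and 469 CPM in WT. Of the 8 astrocyte markers, Gfap among them, 4 were higher and 4 lower in Ash1l het by sign. Of the 9 microglia markers 5 were higher and 4 lower, where 51.4% of all tested genes were higher. The part of glial or blood content in Atf3 and Maff was not tested.

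Btg2, an antiproliferative cofactor of mRNA deadenylation whose promoter is printed above (chr1:134075170-134079120, minus strand), had 7.41, 13.5 and 7.59 CPM in Ash1l het, against 5.13, 3.53 and 6.77 CPM in WT. All 3 Ash1l het libraries lay above the WT libraries, with Ash1l het replicate 2 well above the rest. The fitted log2 difference was 0.88 with SE 0.31 (adjusted p = 0.857, edgeR), and 0.54 without Ash1l het replicate 2. Ier3, a stress-induced regulator of cell survival (chr17:35821684-35822923), had 5.51, 6.12 and 6.93 CPM in Ash1l het, against 5.46, 4.01 and 3.59 CPM in WT. The groups of Ier3 almost touched, at Ash1l het replicate 1 and WT replicate 1, and the fitted log2 difference was 0.52 with SE 0.22 (adjusted p = 0.857, edgeR).

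The remaining members gave small fitted changes or wide intervals. Klf2, a flow-induced factor of endothelial cells, had 5.51, 10.9 and 4.12 CPM in Ash1l het, against 4.31, 4.48 and 5.10 CPM in WT, with 1 Ash1l het library apart from the other 5 (fitted log2 difference 0.56 with SE 0.34, adjusted p = 0.889 by edgeR). The 12 endothelial and mural markers summed to 413, 366 and 466 CPM in Ash1l het, against 309, 378 and 329 CPM in WT. The part of endothelial content in Klf2 was not tested. Klf4, Ier2, Gadd45g, Ier5 and Nptx2, which encodes a secreted pentraxin that clusters AMPA receptors, were lower by sign, between -0.26 and -0.10. Sik1, a kinase that restrains CREB coactivators, Trib1 and Gadd45b were higher by sign, between 0.04 and 0.20. For Sik1 the interval ran from 0.818-fold to 1.29-fold.

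Genes beyond the list were read in the same fit from lists chosen with earlier results of these data known. Of 41 tested activity-regulated genes outside the 32, 0 passed, with 4 higher and 1 lower at an unadjusted edgeR p under 0.05 (3.1% and 2.67% of all tested genes) and a median log2 fold change of 0.041. Socs3, a cytokine feedback inhibitor, had 2.86, 3.45 and 1.32 CPM in Ash1l het, against 0.497, 1.08 and 0.405 CPM in WT (fitted log2 difference 1.91 with SE 0.49, adjusted p = 0.741 by edgeR). Bdnf, the neurotrophin, had 3.20, 0.977 and 1.76 CPM in Ash1l het, against 1.24, 0.837 and 0.637 CPM in WT, with overlapping groups (fitted log2 difference 1.14 with SE 0.48, adjusted p = 0.857 by edgeR). Ptgs2 and Klf10, also in that list, had log2 fold changes of 1.57 and -0.95, each with an edgeR adjusted p of 0.299. Of 31 upstream signalling genes and factors, 23 were lower by sign (48.6% of all tested genes), 0 passed, and 3 had an unadjusted p under 0.05, all lower (2.67% of all tested genes). They were Crtc1, a CREB coactivator, at 244, 255 and 327 CPM in Ash1l het, against 336, 368 and 354 CPM in WT (fitted log2 difference -0.36 with SE 0.13), and the calcium-dependent kinase genes Camk2b and Camk2a, at -0.27 (SE 0.11) and -0.33 (SE 0.14), each with an edgeR adjusted p of 0.857. The groups of Camk2a overlapped, with Ash1l het replicate 3 at 1591 CPM and WT replicate 1 at 1584 CPM. Crtc2 came next, at -0.24 (SE 0.11, adjusted p = 0.858). Creb1 itself had 0.15 (SE 0.11, adjusted p = 0.897) and Srf -0.20 (SE 0.12, adjusted p = 0.887), both named after their values were seen.

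Marker genes of other cells show what else the dissected tissue held. The 6 cortical glutamatergic markers, from a region next to the striatum with high Arc and Egr1, summed to 86.0, 13.6 and 49.3 CPM in Ash1l het, against 60.6, 31.9 and 44.6 CPM in WT. Ash1l het replicate 2 was the lowest of the 6 libraries for cortical markers. It held the highest level of 11 members, Fos, Junb and Nr4a1 among them, and the lowest of 2, Egr2 and Dusp4. Within WT, replicate 2, the lowest WT library for Fos and Arc, also had the lowest cortical sum, 31.9 CPM. Replicate 3, the highest for both genes, had 44.6 CPM, below replicate 1 at 60.6 CPM. The part of cortical tissue in these levels was not tested. The 8 astrocyte markers summed to 3699 to 5254 CPM in Ash1l het, against 4070 to 4990 CPM in WT, the 7 oligodendrocyte markers to 5468 to 8018 and 5325 to 6703 CPM, and the 7 meningeal and choroid plexus markers to 28.3 to 29.1 and 26.1 to 40.7 CPM. The 5 red blood cell markers summed to 56.1 to 123 CPM in Ash1l het, against 23.0 to 35.4 CPM in WT. By the edgeR test 0 markers of any list passed. At an unadjusted p under 0.05, higher in Ash1l het, were 5 of 5 red blood cell, 3 of 12 endothelial and mural and 1 of 7 oligodendrocyte markers, and among 14 spiny projection neuron markers 1 was higher and 2 were lower. Over all tested genes 3.1% were higher and 2.67% lower at that level. No listed marker was at 0 in all libraries, and 1 cortical marker was at 0 in some library. In bulk tissue a lower share of a cell type and less RNA per cell cannot be told apart.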

How the data were processed

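RNA-seq of 6 libraries (3 Ash1l het, 3 WT) was analysed from the gene tables the authors deposited. The deposited counts are raw whole-number counts per gene. The deposited FPKM values are the authors' counts scaled by a length for each gene and the library total. For some genes, such as Egr1 and Arc, that length exceeds the gene's annotated span, and for Egr3 it is below the span and the longest annotated transcript. Per the submitters' processing notes the tools were HISAT2, StringTie, edgeR, CASAVA and FastQC, with the GRCm38 build and no stated roles; the labels' protocols name a stranded mRNA kit, and no source used here gives the strand setting of the counting. Totals ran from 12080663 to 18798694 counts.

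Counts of the 15267 genes that passed filterByExpr (minimum count 10) were scaled by TMM and tested with the robust quasi-likelihood test of edgeR 4.0.16 in R 4.3.3, Ash1l het over WT, with Benjamini-Hochberg adjustment over all of them and a threshold of 0.05. CPM are on the TMM scale. Alternatives were DESeq2 1.42.0, the exact test of edgeR, limma-voom (limma 3.58.1), other scalings and filters, FPKM with pseudocounts of 0.1 and 1, single libraries left out and a replicate block. The test was run on simulated data with known changes first. Structure and G+C content came from the longest GENCODE vM21 transcript, and promoter windows from RefSeq.

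The members and lists were chosen with earlier results of these data known. Values in every library are given for 9 well-known members, the 6 with the smallest p, the 6 with the largest coefficient of variation and the 4 with the highest FPKM; other members shown so were chosen after their values were seen. From each other activity list the 4 genes with the smallest p are named, some by their fold change alone. SD are over 3 libraries.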

Additional observations from a re-analysis of the deposited data

How the results depend on the processing

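The direction of most members is not settled by 3 libraries a group. Of 544 member values over 17 alternatives, 503 kept their direction and side of the threshold, 40 reversed and 1 passed the threshold; 13 of 32 members never reversed. Counts of genes passing over all tested genes were 2 by the edgeR quasi-likelihood test, 39 by DESeq2, 27 by the exact test of edgeR, 1 to 13 with single libraries left out, and 50 without Ash1l het replicates 1 and 2. Of the members, 0 passed except in that last fit, where 1 did (Nr4a3, log2 fold change -1.78, edgeR adjusted p = 0.00464); it sets 1 Ash1l het library, taken to vary like the WT libraries, against 3. The count at an unadjusted p under 0.05 was 5, against 3 by limma-voom, 3 without Ash1l het replicates 1 and 2, and 2 to 6 with single libraries left out. The count whose groups did not overlap was 5 (11.7% of all tested genes), against 3 on either FPKM scale (12%), 15 without Ash1l het replicates 1 and 2 (51%), and 5 to 9 with single libraries left out (18.3% to 28.2%). With fewer libraries more genes of any kind do not overlap, so the larger counts are no result about the members. The median log2 fold change ran from -0.047 to 0.30 with single libraries left out, and the median coefficient of variation from 25.1% to 32.7%.

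Without Ash1l het replicates 1 and 2, reversed log2 fold changes were -0.037 for Atf3, -0.39 for Egr4, -0.20 for Fosb, -0.88 for Fosl2, 0.12 for Ier2, 0.0083 for Ier5, -0.17 for Klf2, -0.031 for Maff, 0.021 for Nptx2 and -0.14 for Nr4a1. Egr3 did not reverse in that fit, at -0.00032. Egr4 was also negative on log2(FPKM + 0.1), log2(FPKM + 1) and by limma-voom, at -0.22, -0.19 and -0.27. With single libraries left out, these members took both signs: Arc from -0.020 to 0.75, Dusp1 from -0.072 to 0.36, Egr2 from -0.68 to 0.047, Egr4 from -0.84 to 0.42, Fosb from -0.13 to 0.32, Fosl2 from -0.16 to 0.46, Ier2 from -0.23 to 0.092, Ier5 from -0.39 to 0.048, Junb from -0.053 to 0.69, Jund from -0.52 to 0.01, Klf4 from -0.34 to 0.18, Npas4 from -0.0077 to 0.81, Nptx2 from -0.26 to 0.034, Nr4a1 from -0.10 to 0.48, Nr4a3 from -0.84 to 0.13 and Sik1 from -0.10 to 0.17. The cause was not tested.

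Replicate numbers are shared by the groups. Deviations of same-numbered libraries correlated at 0.056, -0.075 and 0.011, and those of differently numbered libraries at between -0.130 and 0.126. With 3 libraries a group these values cannot show whether the numbers pair the libraries. With the replicate block 3 genes passed, 0 of them members. In that fit 6 members had an unadjusted edgeR p under 0.05 (5.22% of all tested genes), the median was 0.12 and Egr4 had -0.27. The low members Atf3 and Maff rest on 7 to 76 and 14 to 48 counts a library.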
